A study of Mus musculus with 10 samples.

Results

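The expression of 40 genes of the autophagy and mitophagy machinery was examined in hematopoietic stem cells (HSCs) with and without *Cited2*. The genes were chosen by symbol and role. The rule uses none of their measured values, though earlier results of these data were known when the genes were chosen. Every one of the 40 was found among the 26146 genes of the count table. RNA-seq was performed on bulk HSCs, sorted as Lin-Sca-1+c-Kit+ (LSK) CD48-CD150+ cells, from 10 mice of 8 to 12 weeks of age on the C57BL/6J background, with 1 library per mouse. The 5 control mice (*Cited2* CTL, labelled wildtype) were homozygous for the floxed *Cited2* allele and carried no Cre. The 5 knockout mice (*Cited2* CKO, labelled Cited2 KO) carried the same floxed alleles together with *Vav-iCre*, a Cre transgene driven by *Vav* regulatory elements active in blood-forming cells, so all 10 mice shared the floxed locus and only the knockouts carried Cre. Counts summed to between 3058690 and 4548795 per library, and the 40 genes had between 44 and 2003 counts each in any library. All 40 passed the filter on low counts and were tested together with the other genes, 14165 in all.

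Autophagy delivers cytoplasm and organelles to the lysosome inside a double-membraned vesicle, the autophagosome. The ULK1 kinase complex starts the process, a class III PI3-kinase complex marks the growing membrane with phosphatidylinositol 3-phosphate, ATG9 vesicles and ATG2 supply lipid, and a ubiquitin-like conjugation system attaches ATG8 proteins (LC3 and GABARAP) to the membrane, where they hold cargo receptors. Mitophagy is the selective removal of mitochondria, either through receptors on the mitochondrial surface such as BNIP3, NIX and FUNDC1 or through the kinase PINK1, and it is known as part of how HSCs keep their mitochondria in check. CITED2 binds the coactivators CBP and p300 in competition with hypoxia-inducible factor, and *Bnip3* and *Bnip3l* are textbook targets of that factor.

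*Cited2* itself stood at 163 ± 42.7 CPM in the controls (mean and SD of 5 mice; CPM is the count of a gene scaled to a common library size after normalization). It stood at 3.80, 4.21, 5.00 and 8.30 CPM in CKO 1, 2, 4 and 5 but at 120.1 CPM in the library labelled CKO 3, so that library goes against its label, and the counts of genes are also given without it. HSC marker genes (*Procr*, *Mecom*, *Hlf*, *Slamf1*, *Ly6a*, *Kit*, *Fgd5*, *Hoxb5*) were detected in all libraries. Their summed level was 1404 to 1651 CPM in the controls and 1264 to 1466 CPM in the knockouts, lowest in CKO 3. *Kit* was the largest part of that sum (511 to 674 CPM in the controls). By edgeR 0 of the 8 were called. At an unadjusted p under 0.05 there were 2, *Kit* lower (log2 fold change -0.21) and *Ly6a* higher (0.30). *Mecom* and *Slamf1* also had log2 fold changes above 0 (0.01 and 0.17), and the other markers on this list were below 0. Defining markers of red cells (*Hba-a1*, at most 1.75 CPM), B cells (*Cd79a*, at most 2.41 CPM) and T cells (*Cd3e*, at most 1.73 CPM) were near 0. The summed markers of erythroid cells (39.7 to 59.1 CPM in CTL, 36.9 to 52.3 in CKO), megakaryocytes (523 to 633 and 525 to 655), neutrophils and monocytes (279 to 747 and 289 to 545), B and T cells (48.5 to 81.0 and 52.0 to 66.1) and cycling cells (822 to 1064 and 842 to 1128) overlapped between the genotypes, and 0 of the genes on these lists were called by edgeR (1 at an unadjusted p under 0.05). That gene was the mitotic cyclin *Ccnb1*, at 72.6 to 89.4 CPM in CTL and 95.1 to 125 CPM in CKO, without overlap (log2 fold change 0.45, adjusted p = 0.0781, edgeR), and its part in the values below was not tested. The B and T cell sum was mostly *Cd79b* (41.2 to 70.5 CPM in CTL). In bulk RNA of this kind, fewer cells with a transcript and less of it per cell cannot be told apart, and the part of the HSC marker levels in the values below was not tested.

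None of the 40 genes was called as different between the genotypes by the test used here. That was edgeR's quasi-likelihood test, at an adjusted p under 0.05 over all tested genes and a fold change above 20%. It called 0.12% of all tested genes higher and 0.106% lower in *Cited2* CKO HSCs. The nearest was *Pink1*, the kinase that tags damaged mitochondria, with 127 ± 12.8 CPM in the knockouts against 179 ± 18.3 CPM in the controls (SD, n = 5 each) and an adjusted p of 0.0533. DESeq2's Wald test called 1 of the 40, *Pink1*, where it called 1.25% of all tested genes lower and 1.04% higher. At an unadjusted p under 0.05, 9 of the 40 were lower (*Ulk1*, *Atg13*, *Atg14*, *Atg2a*, *Atg7*, *Atg16l2*, *Map1lc3a*, *Sqstm1* and *Pink1*) and 0 were higher, where 7.08% of all tested genes were lower and 5.8% higher. With DESeq2 the corresponding counts were 8 lower and 0 higher, against 7.05% and 6.82% of all tested genes. For *Pink1*, *Map1lc3a*, *Sqstm1* and *Atg16l2* every knockout library lay below every control library, 4 of 40 genes where 1.98% of all tested genes did so, and for 0 of the 40 did every knockout library lie above, where 1.35% did. The log2 fold change was below 0 for 27 of the 40 genes, as for 49% of all tested genes, and its median was -0.07 over the 40 and 0.01 over all tested genes. Without CKO 3 the same 4 genes were free of overlap (2.73% of all tested genes were then lower without overlap and 2.31% higher). Without CKO 3, 0 of the 40 were called (0.188% of all tested genes were higher and 0.104% lower), 8 were lower and 0 higher at an unadjusted p under 0.05 (6.25% and 5.19% of all), and 26 had a log2 fold change below 0 (50% of all). The sign turned without CKO 3 for *Rb1cc1* (from -0.0089 to 0.072), *Optn* (from -0.060 to 0.0056) and *Atg10* (from 0.082 to -0.0081). By direction, the other 13 of the 40 genes stood above 0 in the fit with all libraries (51% of all).

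**Figure D1:**
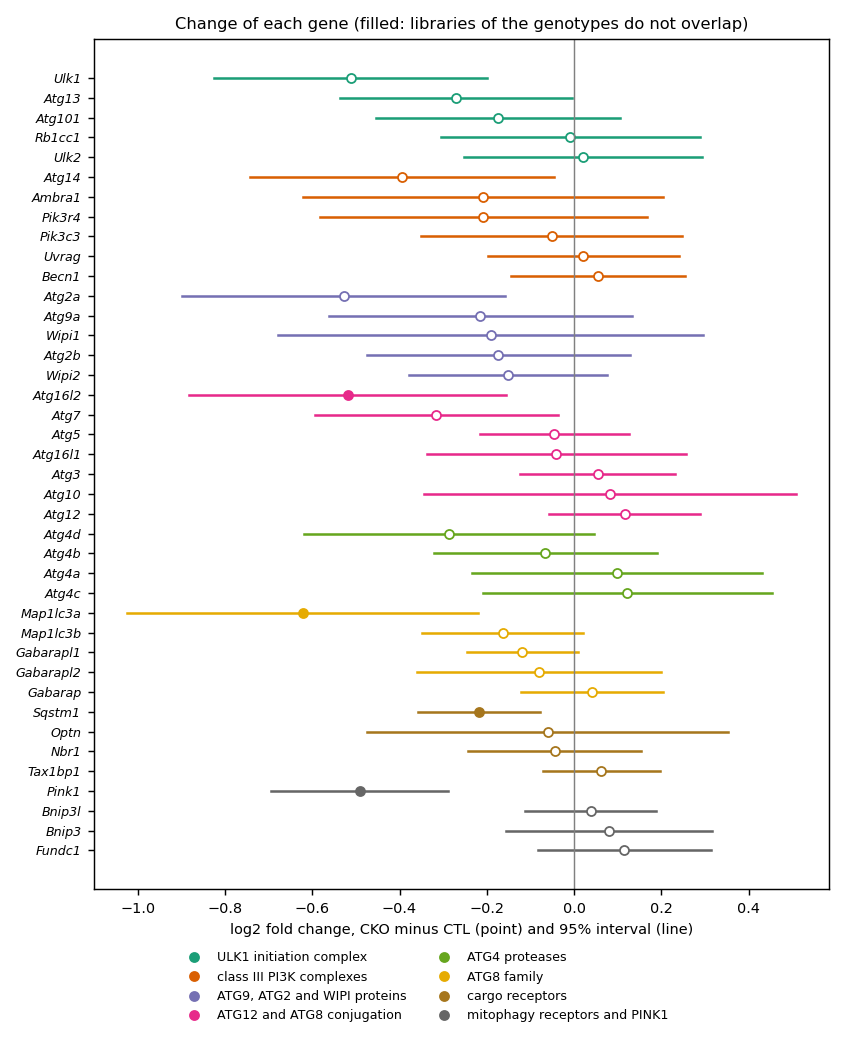
Log2 fold change (CKO minus CTL, horizontal axis) of each of the 40 genes with its 95% interval from edgeR, coloured by role. Filled points mark the 4 genes whose libraries did not overlap between the genotypes, *Atg16l2*, *Map1lc3a*, *Sqstm1* and *Pink1*, all at negative values.

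These values moved with the GC content of the transcripts. Over the 40 genes, the Pearson correlation of log2 fold change with the GC content of the longest transcript was -0.83, and over the 13936 tested genes with a known GC content it was -0.36. Both describe genes that share the same 10 libraries and are not replicates. The 6 genes with a GC content of 55% or more were all lower (median log2 fold change -0.50, against -0.19 for all 2659 tested genes in that range). Of the 23 genes from 45% to under 55%, 19 were lower (median -0.15, against -0.007 for all 7177). Of the 11 genes under 45%, 2 were lower and 9 were not (median 0.08, against 0.12 for all 4100). When each library's trend on GC content and length was taken out by an offset in the fit (here the offset), the correlation over the 40 genes was -0.31, the median log2 fold change was -0.10 against -0.01 for all tested genes, and 37 of the 40 were below 0 (51.7% of all tested genes). With the offset 0 of the 40 were called (0.0353% of all tested genes were higher and 0.0212% lower). Of the 40, 4 (*Atg14*, *Atg16l2*, *Map1lc3a* and *Pink1*) were then lower at an unadjusted p under 0.05, where 3.84% of all tested genes were, and 0 were higher, where 3.31% were. With the trend removed from the CPM, only *Map1lc3a* stayed without overlap among the 40, where 0.918% of all tested genes were lower and 0.734% higher without overlap. A genotype difference that itself runs with GC content would be taken out too, so the parts of GC content and genotype in each value cannot be told apart.

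**Figure D2:**
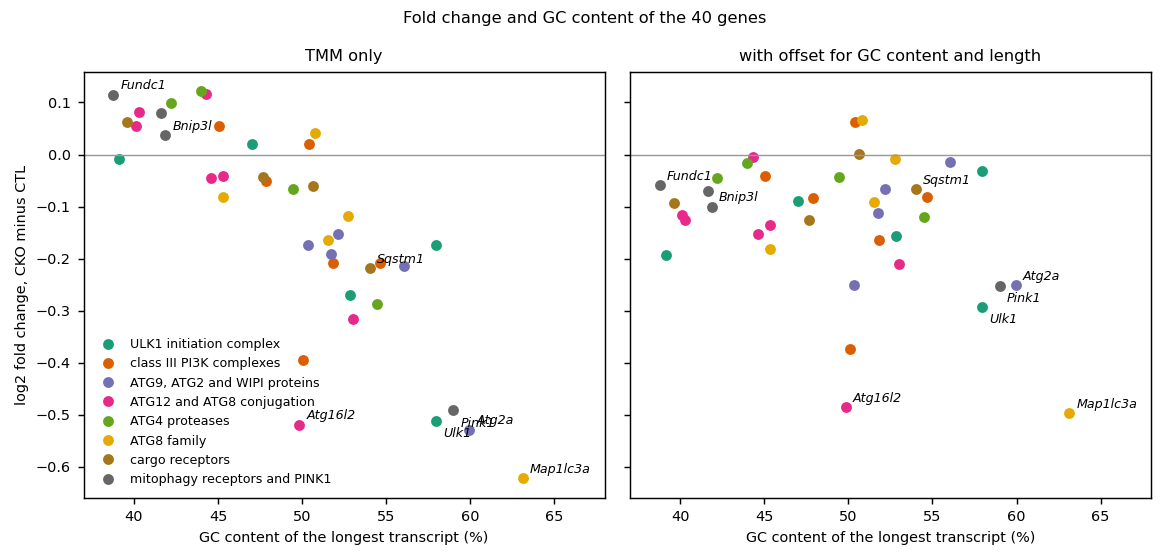
Log2 fold change (CKO minus CTL, vertical axis) against GC content (%, horizontal axis) for the 40 genes, 1 point per gene, without the offset (left) and with the offset (right). The downward slope on the left (r = -0.83) is flatter on the right (r = -0.31), and *Map1lc3a* is the lowest gene in both panels.

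Promoters of the genes whose libraries did not overlap are shown because in these genes every knockout library lay below every control, together with that of *Bnip3*, the hypoxia-responsive mitophagy receptor. They are the 250 bases before the annotated start, 5′ to 3′ on the strand of the gene, from RefSeq on GRCm38.p6, where 33 of the 40 genes had an entry and *Map1lc3a* was not among them. *Pink1* is at chr4:138326297-138326546 on the minus strand, *Atg16l2* at chr7:101302089-101302338 on the minus strand, *Sqstm1* at chr11:50210821-50211070 on the minus strand and *Bnip3* at chr7:138909507-138909756 on the minus strand. Capitals mark ACGTG or GCGTG on either strand, the core of the sequence that hypoxia-inducible factor binds.
Pink1: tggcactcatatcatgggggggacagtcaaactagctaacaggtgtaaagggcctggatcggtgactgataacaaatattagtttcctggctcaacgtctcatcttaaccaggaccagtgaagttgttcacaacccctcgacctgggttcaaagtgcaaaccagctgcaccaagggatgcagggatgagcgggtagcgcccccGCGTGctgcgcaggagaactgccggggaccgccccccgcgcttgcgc
Atg16l2: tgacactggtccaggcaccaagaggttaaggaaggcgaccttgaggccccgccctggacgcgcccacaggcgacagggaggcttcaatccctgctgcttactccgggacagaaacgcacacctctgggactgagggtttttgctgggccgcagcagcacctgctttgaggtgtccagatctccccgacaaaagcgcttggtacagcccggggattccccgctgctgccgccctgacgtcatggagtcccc
Sqstm1: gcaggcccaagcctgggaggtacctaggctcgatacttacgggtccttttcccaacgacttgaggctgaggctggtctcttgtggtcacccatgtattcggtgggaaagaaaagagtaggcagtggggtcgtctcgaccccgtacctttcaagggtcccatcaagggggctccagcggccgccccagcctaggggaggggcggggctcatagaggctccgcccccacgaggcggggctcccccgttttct
Bnip3: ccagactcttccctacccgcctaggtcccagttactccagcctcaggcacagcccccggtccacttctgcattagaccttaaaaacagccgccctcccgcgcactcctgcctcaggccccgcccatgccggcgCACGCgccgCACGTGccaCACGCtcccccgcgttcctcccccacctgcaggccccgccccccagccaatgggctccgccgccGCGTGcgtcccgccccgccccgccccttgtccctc
The *Pink1* window held 1 GCGTG and no ACGTG. The *Bnip3* window held 3 matches to GCGTG and 2 to ACGTG, the latter overlapping on opposite strands in 1 CACGTG, which is the E-box bound by TFEB and MYC family factors. The *Atg16l2* and *Sqstm1* windows held neither. Of all 32851 RefSeq promoter windows of this length, 38.6% held ACGTG or GCGTG and 6.02% held CACGTG. Of the 37 windows of the 33 genes, 29 held ACGTG or GCGTG and 4 held CACGTG. Both cores contain CG, and the 4 windows shown had a GC content of 57.2% to 72.4%. The windows were not matched for base composition, and its part in these counts was not tested. The FOXO core GTAAACA (3.17% of all windows) was in 0 of the 37 windows. The core of the antioxidant response element, TGACNNNGC (10.2%), was in 3 of the 37. Neither was in the 4 windows shown. These are letter matches in a short window, and the data hold no measure of binding.

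The ULK1 complex consists of the kinase ULK1 or ULK2, the scaffolds RB1CC1 (FIP200) and ATG13, and ATG101, which stabilizes ATG13. *Ulk1* (GRCm38 chromosome 5, 110784488 to 110810097) stood at 75.9, 88.7, 71.7, 104 and 107 CPM in CTL 1 to 5, and at 76.3, 69.5, 50.6, 63.5 and 54.4 CPM in CKO 1 to 5. CKO 1 lay above CTL 1 and CTL 3, and the other 4 knockout libraries lay below every control. The means were 89.4 ± 15.9 and 62.9 ± 10.6 CPM (SD, n = 5 each), which edgeR fitted as a log2 fold change of -0.51 ± 0.15 (SE; adjusted p = 0.158), or -0.29 with the offset (adjusted p = 0.734). Its paralog *Ulk2* stood at 142 ± 27.7 and 144 ± 15.8 CPM, with a 95% interval of the log2 fold change from -0.25 to 0.29. The difference between the paralogs' changes was not tested. *Atg13* stood at 76.6 ± 7.16 and 63.7 ± 10.2 CPM (log2 fold change -0.27, adjusted p = 0.383, edgeR), *Atg101* at 57.6 ± 4.89 and 51.0 ± 7.77 CPM and *Rb1cc1* at 259 ± 32.5 and 258 ± 57.7 CPM (SD, n = 5 each). Of the 5 genes, 4 had a log2 fold change below 0, where 49% of all tested genes did.

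The class III PI3-kinase works as the lipid kinase VPS34 (*Pik3c3*) with its adaptor VPS15 (*Pik3r4*) and Beclin 1 (*Becn1*), joined by ATG14 for autophagosome formation or by UVRAG for endosomal traffic, and AMBRA1 links Beclin 1 to the ULK1 complex. *Atg14* (chromosome 14, 47540893 to 47570649) stood at 89.3, 70.2, 50.6, 88.2 and 71.3 CPM in CTL 1 to 5 and at 60.6, 60.4, 54.4, 64.4 and 41.7 CPM in CKO 1 to 5. All 5 knockout libraries lay below 4 of the controls, and CTL 3 lay below 4 of the knockouts. The log2 fold change was -0.39 ± 0.16 (SE; adjusted p = 0.334, edgeR) and -0.37 with the offset. *Uvrag*, the alternative partner, stood at 96.4 ± 8.30 and 97.7 ± 11.4 CPM (95% interval of the log2 fold change -0.20 to 0.24), *Becn1* at 149 ± 15.1 and 155 ± 15.3 CPM and *Pik3c3* at 97.6 ± 9.09 and 94.0 ± 19.7 CPM. *Pik3r4* and *Ambra1* both had a log2 fold change of -0.21, with adjusted p of 0.665 and 0.697 (edgeR). *Pik3r4* stood at 62.7 ± 12.9 and 54.4 ± 11.8 CPM. The means of *Becn1*, *Pik3c3* and *Pik3r4*, the shared core of the complex, each differed by less than the SD of either group. *Becn1* shares up to 1297 exon bases with *Cntd1* on the opposite strand.

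ATG9A is the lipid scramblase of the vesicles that seed the autophagosome, ATG2A and ATG2B are the lipid-transfer proteins that feed it, and WIPI1 and WIPI2 read the phosphatidylinositol 3-phosphate mark. All 5 genes had a log2 fold change below 0, from -0.53 to -0.15, where 49% of all tested genes were below 0. Of the 5, 0 were called. *Atg2a* (chromosome 19, 6241668 to 6262335) was the lowest, at 36.5, 53.5, 67.0, 57.0 and 70.7 CPM in CTL 1 to 5 and 35.2, 38.8, 34.3, 47.9 and 41.9 CPM in CKO 1 to 5. CTL 1 fell among the knockouts, and each of the other 4 controls lay above all 5 of them. Its fitted log2 fold change was -0.53 ± 0.17 (SE; adjusted p = 0.2297, edgeR) and -0.25 with the offset (adjusted p = 0.801). *Atg2b* had a log2 fold change of -0.17, *Atg9a* of -0.22, *Wipi1* of -0.19 and *Wipi2* of -0.15, with adjusted p from 0.598 to 0.770 (edgeR). With the offset these were -0.25 for *Atg2b*, -0.01 for *Atg9a*, -0.11 for *Wipi1* and -0.07 for *Wipi2*.

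In the conjugation system ATG7 is the E1-like enzyme, ATG10 and ATG3 are E2-like enzymes for ATG12 and ATG8, and ATG12 joined to ATG5 binds ATG16L1 to direct ATG8 onto the membrane. ATG16L2 is a paralog of ATG16L1. *Atg16l2* (chromosome 7, 101263034 to 101302251) stood at 41.8, 39.4, 35.9, 35.6 and 32.6 CPM in CTL 1 to 5 and at 26.9, 25.0, 17.7, 32.3 and 27.4 CPM in CKO 1 to 5. The libraries did not overlap, though CKO 4 and CTL 5 differed by little. The means were 37.1 ± 3.59 and 25.9 ± 5.30 CPM (SD, n = 5 each), which edgeR fitted as -0.52 ± 0.17 on the log2 scale (SE; adjusted p = 0.229), and it was -0.49 with the offset (adjusted p = 0.584) and -0.41 without CKO 3 (adjusted p = 0.314). *Atg16l1*, the member of the pair with the established role in canonical autophagy, stood at 62.8 ± 6.66 and 61.1 ± 12.02 CPM, with a log2 fold change of -0.04 (95% interval -0.34 to 0.26). *Atg7* stood at 75.3 ± 11.99 and 60.4 ± 7.04 CPM (log2 fold change -0.32, adjusted p = 0.333, edgeR). *Atg3*, *Atg5*, *Atg10* and *Atg12* had log2 fold changes of 0.05, -0.05, 0.08 and 0.12. The interval was narrow for *Atg5* (-0.22 to 0.13) and wide for *Atg10* (-0.34 to 0.51), whose knockout libraries ranged from 32.6 to 69.2 CPM. The longest exon stretch that *Atg16l2* shares with *Fchsd2* on the opposite strand is 25 bases.

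ATG4 proteases trim ATG8 proteins before conjugation and later release them from the membrane. *Atg4a*, *Atg4b*, *Atg4c* and *Atg4d* had log2 fold changes of 0.10, -0.07, 0.12 and -0.29. *Atg4d* (chromosome 9, 21265293 to 21277772) had the smallest p of these, with 71.6, 50.8, 45.3, 42.4 and 51.0 CPM in CTL 1 to 5 and 49.2, 35.9, 41.6, 42.0 and 44.7 CPM in CKO 1 to 5. The groups overlapped, the highest value was that of CTL 1, and the adjusted p was 0.464 (edgeR, standard error 0.15). Without CTL 1 the log2 fold change of *Atg4d* was -0.16. *Atg4d* shares up to 792 exon bases with *Kri1* on the opposite strand, and since use of strand in counting is not given in the sources used here, reads of the 2 genes may be mixed.

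The ATG8 family comprises the LC3 proteins (*Map1lc3a*, *Map1lc3b*) and the GABARAP proteins (*Gabarap*, *Gabarapl1*, *Gabarapl2*), which coat the autophagosome membrane and bind cargo receptors. *Map1lc3a* (chromosome 2, 155276297 to 155278073) stood at 24.7, 25.0, 23.2, 21.9 and 27.6 CPM in CTL 1 to 5 and at 19.7, 14.6, 12.1, 17.3 and 15.9 CPM in CKO 1 to 5. Every knockout library lay below every control, with CKO 3 the lowest. The means were 24.5 ± 2.12 and 15.9 ± 2.88 CPM (SD, n = 5 each), and the fitted log2 fold change was -0.62 ± 0.19 (SE; adjusted p = 0.183, edgeR), the most negative of the 40 genes. It was -0.50 with the offset (adjusted p = 0.573) and -0.54 without CKO 3 (adjusted p = 0.272).

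The 4 more abundant ATG8 genes had fitted log2 fold changes nearer 0. *Map1lc3b* (chromosome 8, 121590361 to 121598760) stood at 257, 224, 214, 231 and 198 CPM in CTL 1 to 5 and at 192, 205, 182, 234 and 189 CPM in CKO 1 to 5, groups that overlapped (log2 fold change -0.16, 95% interval -0.35 to 0.02). *Gabarapl1* stood at 208, 213, 223, 223 and 207 CPM in the controls and at 202, 197, 186, 196 and 208 CPM in the knockouts. In *Gabarapl1*, 4 of 5 knockout libraries lay below every control, with a log2 fold change of -0.12 (95% interval -0.25 to 0.01), which was -0.01 with the offset. *Gabarap* stood at 139, 126, 131, 128 and 140.3 CPM in the controls and 150.5, 142, 134, 128 and 127 CPM in the knockouts. *Gabarapl2* stood at 61.2, 49.8, 47.6, 43.1 and 47.3 CPM in the controls and 45.6, 48.7, 40.9, 54.1 and 45.9 CPM in the knockouts. The libraries of both genes overlapped, with 95% intervals of the log2 fold change from -0.12 to 0.20 for *Gabarap* and from -0.36 to 0.20 for *Gabarapl2*. Adjusted p for these 4 genes lay between 0.422 and 0.863 (edgeR).

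Per length, the ATG8 pool of HSCs was made of *Map1lc3b*, *Gabarapl1* and *Gabarap* in similar parts. Of the summed RPKM of the 5 genes (CPM divided by the deposited gene length in kilobases), *Map1lc3b* made 29.3% ± 1.87, *Gabarapl1* 27.2% ± 1.69 and *Gabarap* 26.5% ± 1.33 in the controls (SD, n = 5). *Gabarapl2* made 11.3% ± 1.11 and *Map1lc3a* 5.69% ± 0.566. In the knockouts *Map1lc3a* made 3.96% ± 0.587, and its highest knockout share, 4.78%, lay below its lowest control share, 5.15%. The sum of the 5 was 447 ± 18.2 RPKM in the controls (434 to 479) and 415 ± 19.9 RPKM in the knockouts (385 to 434). The sums overlapped, as the highest knockout sum (434.4 RPKM) lay just above the lowest control sum (434.2 RPKM). *Gabarapl1* and *Map1lc3b* share exon bases with a gene on the opposite strand (up to 377 with *1700101I11Rik* and 58 with *Zcchc14*), which limits their values in the same way as for *Atg4d*. The same holds for *Becn1*, *Atg2b* (383 with *Gskip*) and *Atg9a* (46 with *Ankzf1*).

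**Figure D3:**
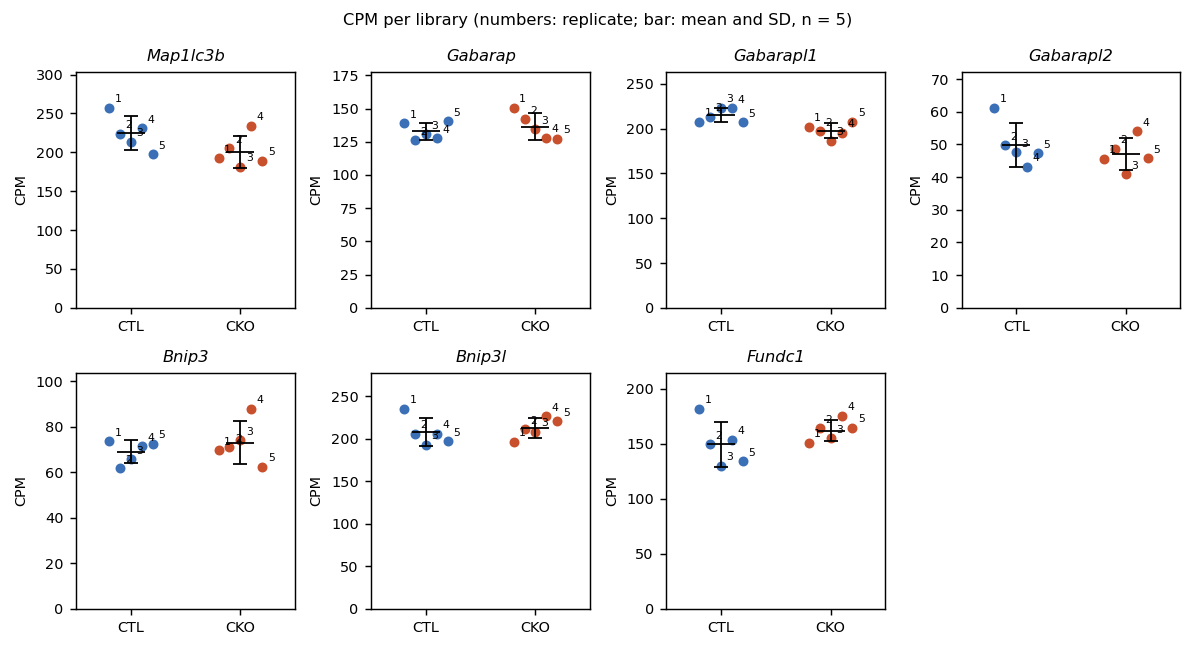
CPM (vertical axis, from 0) of 4 ATG8 genes and 3 mitophagy receptor genes in each library of CTL and CKO, 1 point per mouse numbered by replicate, with the mean and SD (n = 5). The genotypes overlap in all 7 panels.

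Cargo receptors bind ubiquitin or organelles on one side and ATG8 proteins on the other. *Sqstm1* (chromosome 11, 50199366 to 50210827), which encodes p62, stood at 239, 221, 211, 211 and 221 CPM in CTL 1 to 5 and at 192, 182, 187, 179.6 and 207 CPM in CKO 1 to 5. The groups did not overlap, with CKO 5 close to CTL 3 and CTL 4. The means were 221 ± 11.5 and 189.6 ± 10.9 CPM (SD, n = 5 each), which edgeR fitted as -0.22 ± 0.07 on the log2 scale (SE; adjusted p = 0.178). With the offset it was -0.07 (adjusted p = 0.932), and with the trend removed the libraries overlapped. *Sqstm1* shares up to 580 exon bases with *Mrnip* on the opposite strand, which stood at 14.6 ± 2.05 and 12.8 ± 2.93 CPM. The ubiquitin-binding receptors *Nbr1*, *Optn* and *Tax1bp1* had log2 fold changes of -0.04, -0.06 and 0.06. *Tax1bp1* was measured most precisely of these, at 442 ± 21.9 and 461 ± 28.7 CPM, with a 95% interval from -0.07 to 0.20.

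*Pink1* (chromosome 4, 138313409 to 138326307) encodes the kinase that accumulates on depolarized mitochondria and phosphorylates ubiquitin there. It stood at 188, 191, 147, 180.1 and 189 CPM in CTL 1 to 5 and at 139, 129, 107, 126 and 137 CPM in CKO 1 to 5. The groups did not overlap, CTL 3 was the low control and CKO 3 the low knockout. The log2 fold change was -0.49 ± 0.09 (SE; 95% interval -0.69 to -0.29, adjusted p = 0.0533, edgeR). As a ratio of the knockout to the control level, that 95% interval ran from 0.618 to 0.818. DESeq2's Wald test gave an adjusted p of 0.000508. Without CTL 3 the adjusted p was 0.0356 (log2 fold change -0.56), and leaving out each other library in turn gave 0.0618 to 0.194. With the offset it was -0.25 (95% interval -0.48 to -0.02, adjusted p = 0.641, edgeR). The transcript has a GC content of 59.0%.

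**Figure D4:**
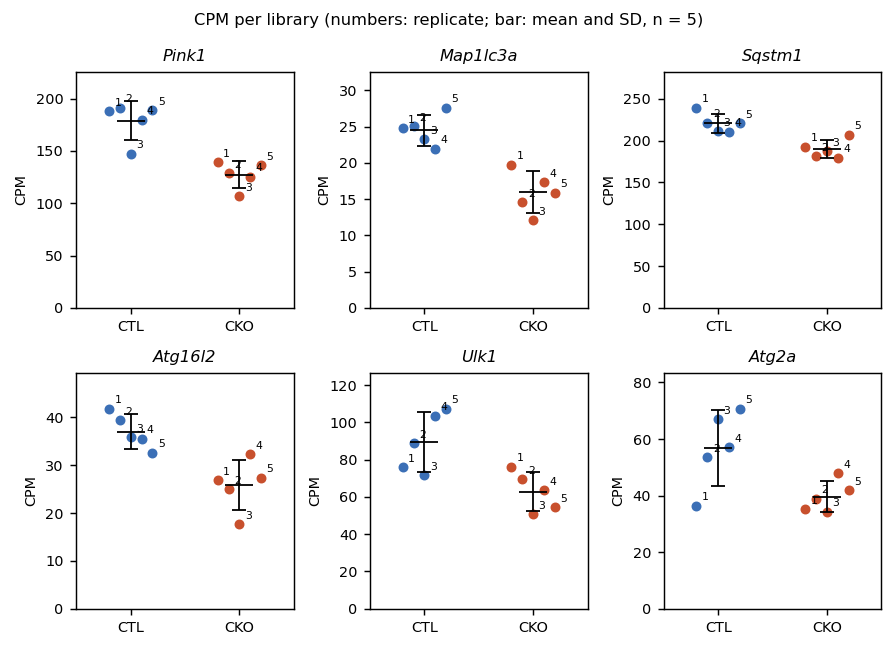
CPM (vertical axis, from 0) of 6 genes in each library of CTL and CKO, 1 point per mouse numbered by replicate, with the mean and SD (n = 5). *Pink1*, *Map1lc3a*, *Sqstm1* and *Atg16l2* show no overlap between the genotypes, and *Ulk1* and *Atg2a* overlap.

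The genes of the 3 mitophagy receptors overlapped between the genotypes. *Bnip3* (chromosome 7, 138890836 to 138909519), an outer membrane receptor, stood at 73.6, 61.9, 65.9, 71.4 and 72.6 CPM in CTL 1 to 5 and at 69.6, 71.0, 74.2, 87.9 and 62.4 CPM in CKO 1 to 5. *Bnip3l* (chromosome 14, 66985239 to 67008877), which encodes NIX, the receptor that clears mitochondria from maturing red cells, stood at 235, 206, 193, 206 and 197 CPM in the controls and at 197, 212, 209, 227 and 221 CPM in the knockouts. *Fundc1* (chromosome X, 17556564 to 17572325), a further outer membrane receptor, stood at 182, 149, 130 and 154 CPM in CTL 1 to 4, 134 CPM in CTL 5, and at 151, 164, 155, 175.5 and 164.5 CPM in the knockouts. No receptor gene had its knockout libraries all on one side of its controls. The log2 fold changes were 0.08 for *Bnip3* (95% interval -0.16 to 0.31), 0.04 for *Bnip3l* (-0.11 to 0.19) and 0.11 for *Fundc1* (-0.08 to 0.31), with adjusted p of 0.811, 0.864 and 0.648 (edgeR). With the offset the signs turned, to -0.07, -0.10 and -0.06. The pseudogene *Bnip3l-ps* had 2.58 ± 0.983 and 2.33 ± 0.624 CPM, so reads assigned to it were few beside those of *Bnip3l*. The difference in change between *Pink1* and the receptors was not tested.

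In the control HSCs, the levels per length ran from 134 RPKM (*Tax1bp1*) to 7.35 RPKM (*Ambra1*), with a median of 31.7 RPKM over the 40 genes against 15.7 RPKM over all tested genes, and 33 of the 40 stood above the latter. The top of the order was *Tax1bp1* (134 ± 6.67), *Map1lc3b* (131 ± 12.8), *Gabarapl1* (121 ± 4.43), *Gabarap* (118 ± 5.72) and *Sqstm1* (110.3 ± 5.75 RPKM, SD, n = 5). Each of the first 4 differed from the next by less than the larger of their SDs, apart from *Gabarap* and *Sqstm1*, and a wider gap followed down to *Fundc1* (76.7 ± 10.5) and *Pink1* (75.7 ± 7.72 RPKM). The bottom held the long lipid-transfer genes *Atg2a* (8.98 ± 2.12) and *Atg2b* (7.95 ± 1.32) and *Ambra1* (7.35 ± 0.827 RPKM). The spread between mice was modest, with a median coefficient of variation of 10.1% in the controls and 12.3% in the knockouts.

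**Figure D5:**
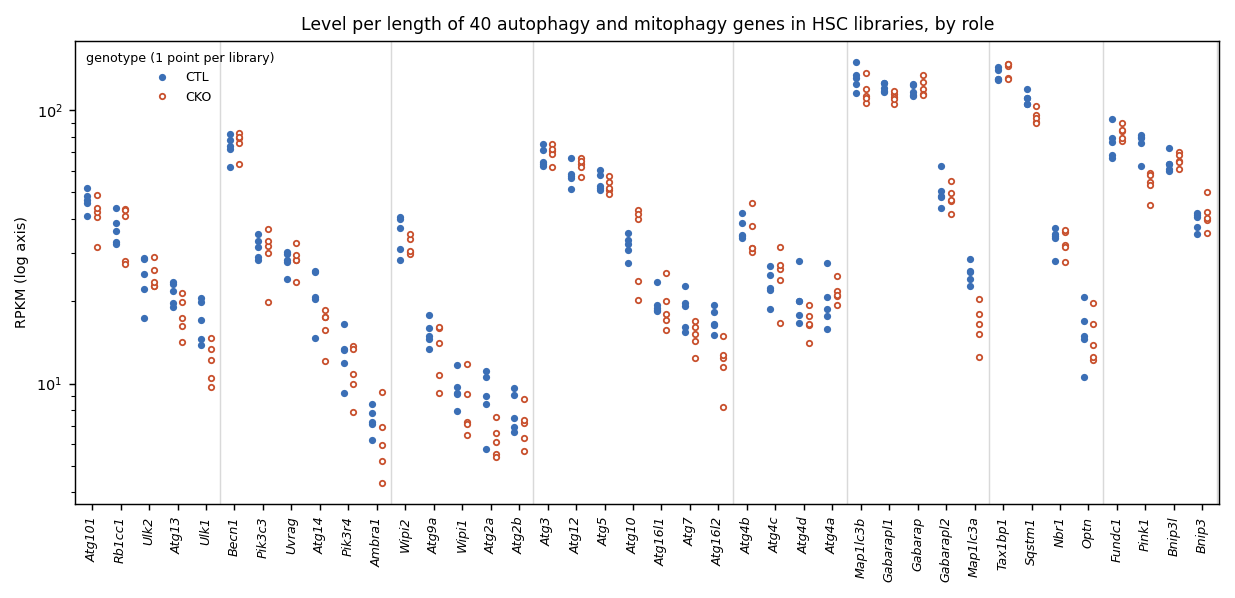
RPKM (vertical log axis) of the 40 genes in each of 5 CTL (filled) and 5 CKO (open) libraries, with genes in blocks by role in the order ULK1 complex, PI3-kinase, ATG9 to WIPI, conjugation, ATG4, ATG8, cargo receptors and mitophagy. *Tax1bp1* and 3 ATG8 genes are the highest, from 118 to 134 RPKM in the controls, and *Ambra1* is the lowest.

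The library labelled CKO 3, which kept *Cited2* reads, held the lowest of the 10 values for 13 of the 40 genes and the highest for 0. Over all tested genes with counts in every library (13282), CKO 3 was lowest for 12% and highest for 11.6%. CTL 1 held the highest value for 10 of the 40 genes (16% of all genes). The median log2 difference of the 40 genes from the control mean lay between -0.07 and 0.07 in the control libraries and between -0.17 (CKO 3) and -0.05 (CKO 4) in the knockouts. CTL 3, at -0.07, lay inside the knockout range.

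A further 72 genes of the pathway were read out of the same fit, covering upstream kinases, transcription factors, other membrane and initiation genes, fusion, other receptors and other mitophagy genes. Of these 71 were tested (*Foxo4* had too few counts) and 0 were called by edgeR. At an unadjusted p under 0.05, 1 was higher (*Prkab1*, an AMPK subunit) and 14 were lower, where 5.8% of all tested genes were higher and 7.08% lower. Without CKO 3 the counts were 3 higher and 10 lower (5.19% and 6.25% of all). *Prkab1* averaged 77.6 CPM in the controls (68.2 to 90.8) and 92.9 CPM in the knockouts (85.3 to 108). This was fitted by edgeR as 0.26 ± 0.11 on the log2 scale (SE; adjusted p = 0.336) and as 0.43 with the offset (adjusted p = 0.261). With the trend removed, the libraries did not overlap for 2 higher genes of the 71 (*Prkab1* and *Ykt6*) and 1 lower (*Stx17*). Of all tested genes, 0.734% were then higher and 0.918% lower without overlap. DESeq2 called 1 of the 71, *Vps11*, as lower, where it called 1.25% of all tested genes lower. Libraries did not overlap for 2 genes, both lower (*Mtor* and *Vps11*), where 1.98% of all tested genes were lower and 1.35% higher without overlap. Without CKO 3 this held for 4 lower (also *Vps16* and *Nipsnap1*) and 1 higher (*Zkscan3*), where 2.73% and 2.31% of all tested genes did so. The median log2 fold change was -0.12, against 0.01 over all tested genes. The fusion and maturation genes held 7 of the 14 (*Stx17*, *Plekhm1*, *Tecpr1*, *Vps11*, *Vps16*, *Vps18* and *Vps39*) among 14 genes of that role, a count with no test of the group. With the offset, *Stx17* and *Vps11* of these 7 were lower at an unadjusted p under 0.05. *Stx17* was fitted at -0.32 (adjusted p = 0.325, edgeR), or -0.50 with the offset (adjusted p = 0.172, edgeR). *Vps11*, a subunit of the HOPS complex that tethers autophagosomes to lysosomes, stood at 77.9, 68.7, 74.7, 81.7 and 73.5 CPM in CTL 1 to 5 and at 42.8, 55.4, 66.4, 59.7 and 47.9 CPM in CKO 1 to 5. The groups did not overlap (log2 fold change -0.47 ± 0.13, SE; adjusted p = 0.1399, edgeR), and DESeq2 gave an adjusted p of 0.0355. *Mtor*, the kinase that holds the ULK1 complex inactive when nutrients are present, stood at 61.9, 58.8, 69.4, 62.2 and 70.7 CPM in CTL 1 to 5 and at 57.3, 49.7, 56.5, 44.98 and 50.004 CPM in CKO 1 to 5, and its highest knockout library (57.3 CPM) lay below its lowest control (58.8 CPM) (log2 fold change -0.32, adjusted p = 0.255, edgeR). The ER-phagy receptor gene *Calcoco1* stood at 74.6, 72.2, 65.9, 65.1 and 56.7 CPM in the controls and at 55.6, 55.7, 51.1, 40.3 and 56.9 CPM in the knockouts. The fusion adaptor *Plekhm1* stood at 36.1, 34.1, 41.7, 33.6 and 31.3 CPM in the controls and at 23.5, 24.7, 22.5, 33.2 and 26.3 CPM in the knockouts. Both overlapped by 1 knockout library (CKO 5 for *Calcoco1* and CKO 4 for *Plekhm1*), with log2 fold changes of -0.36 and -0.44 (adjusted p = 0.252 and 0.265, edgeR). With the offset, 4 of the 71 were lower and 2 higher at an unadjusted p under 0.05, where 3.84% and 3.31% of all tested genes were. The factors that switch on autophagy genes, *Tfeb*, *Tfe3*, *Mitf*, *Foxo1* and *Foxo3*, had log2 fold changes from -0.43 to -0.07, and 0 of them passed an unadjusted p of 0.05.

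The 15 further mitophagy genes had a median log2 fold change of -0.06, with 5 above 0 and 10 below (51% and 49% of all tested genes). Of them, 3 (*Phb2*, *Usp30* and *Mfn2*) were lower at an unadjusted p under 0.05 and 0 were higher (7.08% and 5.8% of all). With the offset, 0 of the 15 were lower and 0 higher at that threshold (3.84% and 3.31% of all). The deubiquitinases *Usp30* and *Usp15*, which oppose mitophagy, had opposite signs. For *Usp30* the log2 fold change was -0.50 (adjusted p = 0.271, edgeR), or -0.32 with the offset. For *Usp15* it was 0.16 (adjusted p = 0.42, edgeR), or 0.02 with the offset. The mitochondrial fusion gene *Mfn2* was fitted at -0.25 (adjusted p = 0.386, edgeR), or -0.15 with the offset.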

How the data were processed

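RNA from HSCs of 5 *Cited2* CTL and 5 *Cited2* CKO mice was analysed. The values deposited by the authors are raw counts per gene, made from single-end reads by alignment (HISAT2, GRCm38) and read summarization (Rsubread), together with gene lengths in bases. The annotation, use of strand, and treatment of duplicate and multi-mapping reads are not given in the sources used here. Library totals of 3058690 to 4548795 counts limit the precision of low genes.

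Counts were tested in R 4.3.3 with edgeR 4.0.16 (filterByExpr, TMM, robust quasi-likelihood test, Benjamini-Hochberg adjustment over 14165 genes). CPM and RPKM use TMM library totals. Intervals are 95%, from the standard error and the degrees of freedom of the fit. GC content came from the longest GENCODE transcript of each gene, and the offset from a loess fit per library on GC content and gene length (span 50%). Scripts were tested on simulated data with 200 changed genes. There edgeR called 136 of the 200 and made 2 false calls. DESeq2 called 138 of the 200 and made 22 false calls. Alternatives were DESeq2 1.42.0, its size factors, no filter, the replicate block, the offset, and each library left out. The offset without CKO 3 and the alternatives for overlap were chosen after seeing the data. The genes and lists were chosen with earlier results of these data known. By rule, values are given in full for genes that were called or did not overlap, the smallest p of each role, all ATG8 and mitophagy genes, and the 4 smallest p of the further list. The motifs, and other genes given with values, were picked with the values known. Some genes of the marker and further lists are not reported here and were left out of their sums and counts.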

Additional observations from a re-analysis of the deposited data

Results flagged for a closer look

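*Pink1* in CTL 3 stood at 147 CPM, apart from the other 4 controls at 180.1 to 191 CPM. The gap to its nearest neighbour was 0.747 of the range of the group, above Dixon's critical value of 0.71 for 5 samples. It was the only such value in 30 groups (15 genes in 2 genotypes), and chance gives about 1 in 20 groups.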

How the results depend on the processing

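Over all genes, edgeR called 17 higher and 15 lower. The counts were 148 and 177 with DESeq2's Wald test, 5 and 3 with the GC and length offset, and 8 and 3 with the offset and the replicate block together. With the replicate block alone 9 genes were lower, as were 9 with the offset without CKO 3. Leaving out each library in turn gave 5 to 27 higher and 3 to 18 lower. Of the 40 autophagy genes, 0 were called lower by edgeR and 1 (*Pink1*) was with DESeq2, with no filter on low counts (adjusted p = 0.0408), with the replicate block (adjusted p = 0.0427) and without CTL 3, so leaving out libraries gave 0 to 1. The count of genes called higher was 0 under all of these. Of the further list, 1 gene (*Vps11*) was called lower with DESeq2. With GC content and length trends removed, 1 of the 4 genes without overlap remained so. The median log2 fold change of the 40 genes ranged from -0.14 (without CKO 4) to -0.073 when libraries were left out. The log2 fold change of *Cited2* was -2.51 (adjusted p = 0.328), -4.92 without CKO 3 and -4.77 with the offset and without CKO 3 (-4.92 to -2.23 when libraries were left out).

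Signs turned for 4 of the 15 genes of the 40 that have values per library. With the offset, with the offset and the replicate block, and with the offset without CKO 3, the log2 fold change was -0.070, -0.076 and -0.045 for *Bnip3*, -0.10, -0.11 and -0.063 for *Bnip3l*, and -0.058, -0.060 and -0.023 for *Fundc1*. *Gabarapl1* turned to 0.0076 with the offset without CKO 3. The other 11 genes kept their direction under all 17 alternatives. Libraries with the same number did not pair (r of their deviations from -0.09 to 0.21, and 3 of 10 libraries correlated best with their own number), so the block is given here as an alternative and not beside the results. The cause of these shifts was not tested. With 44 counts or more for each of the 40 genes, depth limits the low members such as *Map1lc3a* most.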
